A study of Mus musculus with 30 samples.

Results

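The interleukin 1 system was followed through 7 genes of 55573 gene IDs in the bulk tables: the ligands Il1a and Il1b, the receptor antagonist Il1rn, the signalling receptor Il1r1, the decoy receptor Il1r2, the IL-33 receptor Il1rl1 and the shared accessory chain Il1rap. The genes were taken by name, though with earlier results of these data known, and all 7 were measured in every library used. The study grew 3 mouse oral squamous carcinoma models, MOC1, MOC1E1 (also written MOC1esc1 in the labels) and MOC22, in C57BL/6J mice. For the single-cell part, mice bearing MOC1 or MOC1E1 tumours received isotype control, anti-PD-1 or anti-CTLA-4 antibody, and mice bearing MOC22 tumours received isotype control or anti-PD-1. The injections were intraperitoneal, on days 3, 6 and 9 after tumour inoculation, and each of the 8 groups was 1 library. The bulk part held 12 libraries in 4 groups of 3, whole tumours of MOC1 and MOC1E1 from mice labelled as untreated and cultured cells of the same lines. The labels also call the cultured cells untreated, while the column names of their table carry the tag plusifng, so whether interferon gamma was added is not settled. No age or sex of the mice, and no number of mice per library, could be taken from the labels.

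IL-1 alpha and IL-1 beta bind IL1R1, which then recruits the accessory protein IL1RAP and signals through MyD88 and IRAK kinases to NF-kB. IL-1 beta is made as a precursor that inflammasome caspase-1 cleaves, whereas the IL-1 alpha precursor, common in epithelial cells, is already active. IL1RN occupies IL1R1 without signalling, IL1R2 binds the ligands but lacks a signalling domain, and IL1RL1 (ST2), which also pairs with IL1RAP, is carried by mast cells and a share of tissue regulatory T cells.

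The ligand genes lie next to each other on chromosome 2, Il1a at 129299609 to 129310186 and Il1b at 129364569 to 129371164, and Il1rn lies on the same chromosome at 24336860 to 24351491 (RefSeq, GRCm38.p6). Il1r2 (40084692 to 40125230), Il1r1 (40222480 to 40316201) and Il1rl1 (40404864 to 40465418) form a cluster on chromosome 1, and Il1rap lies on chromosome 16 at 26581509 to 26730128. The 250 bases before the start are printed for the ligands and the antagonist, the 3 genes most of the results turn on, 5′ to 3′ on the gene's strand, with motif matches in capitals; they are chr2:129309973-129310222 on the minus strand for Il1a, chr2:129371140-129371389 on the minus strand for Il1b and chr2:24336610-24336859 on the plus strand for the first of the Il1rn starts.
Il1a: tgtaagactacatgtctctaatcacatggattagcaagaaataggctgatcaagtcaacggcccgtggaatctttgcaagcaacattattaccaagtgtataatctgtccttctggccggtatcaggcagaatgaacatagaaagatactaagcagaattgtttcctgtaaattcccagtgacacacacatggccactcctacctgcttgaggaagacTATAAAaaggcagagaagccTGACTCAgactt
Il1b: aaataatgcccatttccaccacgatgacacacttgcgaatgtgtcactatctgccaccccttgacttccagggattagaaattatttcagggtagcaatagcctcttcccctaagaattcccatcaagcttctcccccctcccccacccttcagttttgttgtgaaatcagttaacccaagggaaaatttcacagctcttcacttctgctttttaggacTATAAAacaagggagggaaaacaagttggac
Il1rn: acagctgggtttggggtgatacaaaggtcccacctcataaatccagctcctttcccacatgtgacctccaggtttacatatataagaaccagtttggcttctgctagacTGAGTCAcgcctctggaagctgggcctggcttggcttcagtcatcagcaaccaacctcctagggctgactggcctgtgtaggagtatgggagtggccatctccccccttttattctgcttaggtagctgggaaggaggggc
The windows of Il1a and Il1b each held TATAAA, 32 and 31 bases before the start, a motif found on either strand in 12.4% of 32851 promoter windows of the same length. An AP-1 motif (TGANTCA) stood 12 bases before the start of Il1a and 141 bases before that of Il1rn, and 6.7% of all windows held one. The NF-kB motif searched (GGGA and TTCC parted by any 2 bases, on either strand, in 1.2% of windows) was not among the letters of any of the 11 windows of the 7 genes. The other motifs searched were TTGCNNAA for C/EBP, in 9.6% of windows and found once each in a window of Il1r1 and of Il1rl1, and AGATAA for GATA factors, in 10.0% of windows and found in both windows of Il1rl1.

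In whole tumours the ligands, the antagonist and 2 receptors were lower in MOC1E1 than in MOC1, by the largest factor for Il1a. Il1a stood at 10.65, 10.85 and 9.57 TPM (a level scaled to gene length and to the library's total) in the MOC1 tumours and at 0.54, 0.75 and 0.70 TPM in the MOC1E1 tumours. The groups lay far apart, with a MOC1 mean 15.7 times the MOC1E1 mean. On the log2(TPM + 1) scale, which understates the change of low genes, Il1a fell by 2.77 (SE 0.16, limma adjusted p = 6.99e-05 with the Benjamini-Hochberg method over all 15125 genes tested). The gene passed the filter on low values, at least 1 TPM in 3 libraries, only through its MOC1 libraries; Il1rl1, with 1 MOC1E1 library at that level, also needed them. Il1b was at 17.88, 37.03 and 21.75 TPM in MOC1 tumours and 8.38, 7.65 and 4.33 TPM in MOC1E1 tumours. Its 2 sets of libraries did not overlap, and Il1b fell by 1.75 on the log2 scale (SE 0.30, limma adjusted p = 0.0086).

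Il1rn, which blocks the receptor to both ligands, was the member with the highest TPM in tumours of both lines. It stood at 94.52, 97.15 and 130.23 TPM in MOC1 and 35.57, 30.16 and 56.13 TPM in MOC1E1, without overlap, and fell by 1.41 (SE 0.23, limma adjusted p = 0.0066). The antagonist thus had 2.64 times the level in MOC1 tumours, against 3.77 times for Il1b and 15.7 times for Il1a.

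Among the receptors, the decoy Il1r2 was at 7.36, 9.67 and 10.58 TPM in MOC1 tumours and 3.12, 3.12 and 4.31 TPM in MOC1E1 tumours. These libraries did not overlap, and Il1r2 fell by 1.17 on the log2 scale (SE 0.19, limma adjusted p = 0.00629). The IL-33 receptor Il1rl1 was low, at 2.76, 3.35 and 2.27 TPM against 0.63, 1.34 and 0.93 TPM. It fell by 0.95 (SE 0.21, limma adjusted p = 0.0208), a limma call that was lost without MOC1 library 3 (adjusted p = 0.0632), MOC1 library 4 (0.0852) or MOC1E1 library 1 (0.0618), and with no filter on low values (0.0543). The signalling receptor Il1r1 was at 23.48, 22.57 and 19.68 TPM in MOC1 and 13.78, 17.46 and 16.41 TPM in MOC1E1. The Il1r1 libraries did not overlap, but the difference of -0.44 (95% interval -0.75 to -0.14) missed the threshold of 0.05 by limma, with an adjusted p of 0.0524. With size factors the limma adjusted p was 0.0264, and with the spread taken from all 12 libraries it was 0.00782. The accessory chain Il1rap overlapped fully, at 4.89, 5.44 and 3.97 TPM against 3.81, 5.32 and 5.60 TPM, with a difference of 0.03 (95% interval -0.41 to 0.47, limma adjusted p = 0.931).

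In all, 5 of the 7 members were called lower in MOC1E1 tumours and 0 higher, with a median of -1.17. Over the 15125 genes tested, 18.6% were called in either direction, 11.9% lower and 6.7% higher, and the median was -0.04. In bulk tissue, fewer cells of a type and less RNA per cell cannot be told apart. Neutrophil markers moved with the members: their summed level was 179.38 to 237.37 TPM in MOC1 tumours and 14.73 to 34.00 TPM in MOC1E1 tumours, and all 7 of the 10 listed that could be tested were called lower. Cxcr2, Acod1 and Hdc on this list had MOC1E1 tumour means of 0.28, 0.48 and 0.72 TPM, under the 1 TPM of the filter. Such genes could pass it only with MOC1 libraries, so they could hardly be called higher. The mast cell and basophil markers moved as well, at 58.28 to 83.01 TPM against 17.91 to 23.11 TPM, with all 6 tested of 7 listed called lower. How many of these 6 passed the filter only with MOC1 libraries was not counted. The regulatory T cell markers were at 60.11 to 71.13 TPM against 48.19 to 55.86 TPM, with 1 of 8 called lower. The NK cell markers were at 112.04 to 124.70 TPM against 53.90 to 92.91 TPM, with 0 of 2 tested called lower. The T cell markers overlapped, at 41.73 to 51.02 TPM against 21.01 to 61.41 TPM. The macrophage markers spanned 1936.28 to 2136.90 TPM against 790.61 to 1780.32 TPM with 3 of 10 called lower. The monocyte markers spanned 596.27 to 788.67 TPM against 335.79 to 548.42 TPM with 2 of 9 called lower. In cultured cells the monocyte list stood about as high, at 756.21 to 775.51 TPM in MOC1 and 519.76 to 548.34 TPM in MOC1E1. The sum of the monocyte list in tumours is therefore not a measure of monocytes alone. The neutrophil list was low in cultured cells but also separated the lines, at 21.88 to 22.17 TPM in MOC1 and 0.96 to 1.69 TPM in MOC1E1. Acod1 had culture means of 13.7 and 0.09 TPM and Hdc of 7.29 and 0.883 TPM, so this list is likewise not a measure of neutrophils alone. Carcinoma markers overlapped, at 17010.27 to 18003.94 TPM in MOC1 and 17437.28 to 18628.62 TPM in MOC1E1. The part of these cell types in the members' differences was not tested.

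**Figure D1:**
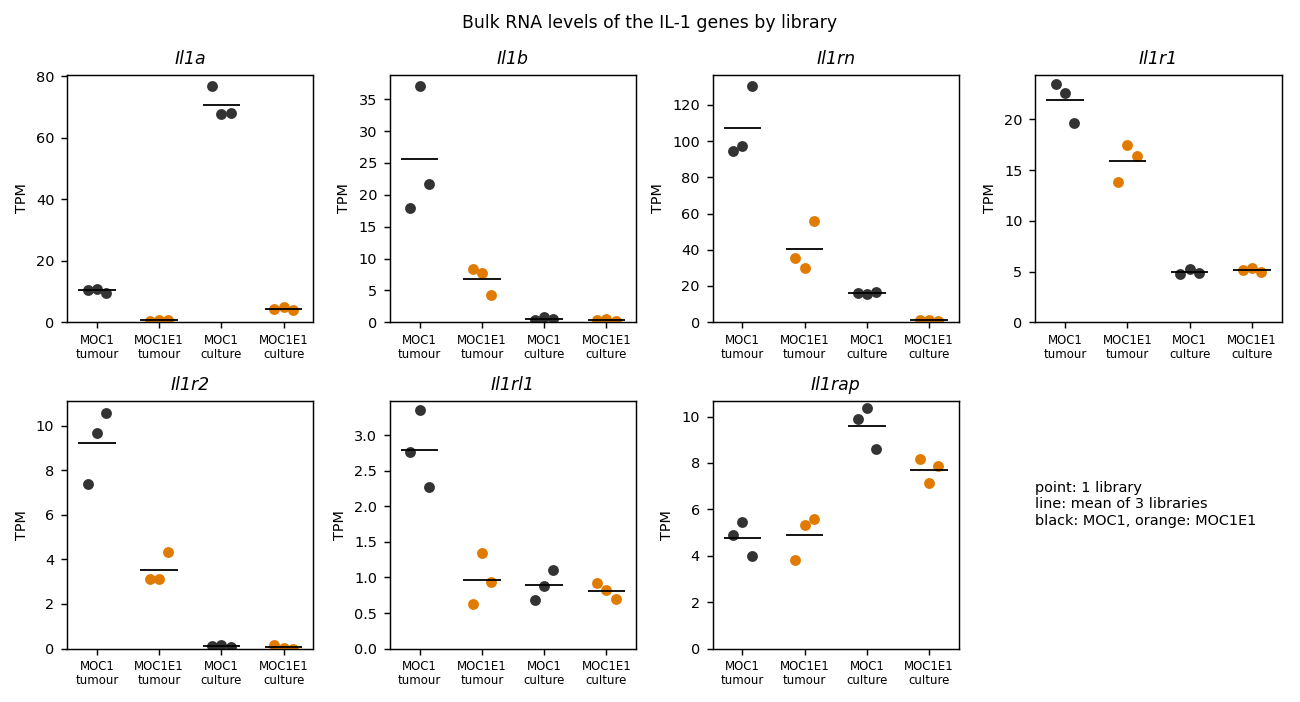
Levels of the 7 genes in the 12 bulk libraries, in TPM on linear axes that differ between genes, for tumours and cultures of MOC1 and MOC1E1; each point is 1 library and each line the mean of 3. Il1a is separated between the lines in both materials, Il1rn is highest in MOC1 tumours at 94.52 to 130.23 TPM, and Il1rap overlaps in tumours.

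In cultured carcinoma cells the alpha ligand and the antagonist again separated the lines, and Il1b was near 0. Il1a was at 76.78, 67.60 and 68.10 TPM in MOC1 cells and 4.20, 5.04 and 3.93 TPM in MOC1E1 cells, a mean 16.1 times higher in MOC1. It fell by 3.74 on the log2 scale (SE 0.09, limma adjusted p = 3.25e-07). Il1rn was at 16.34, 15.40 and 16.70 TPM against 1.18, 1.12 and 0.91 TPM, 15 times higher in MOC1, and fell by 3.05 (SE 0.09, limma adjusted p = 5.84e-07). It passed the filter on low values only with its MOC1 libraries. Both genes thus separated the cultured lines with libraries that lay close together within each line. The defining neutrophil genes S100a8 and S100a9 were under 1 TPM in the cultures, while Acod1, listed as a neutrophil marker, was at 13.71, 13.79 and 13.67 TPM in MOC1 cells.

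The receptors behaved otherwise in culture. Il1rap was at 9.91, 10.35 and 8.58 TPM in MOC1 cells and 8.15, 7.14 and 7.85 TPM in MOC1E1 cells, and fell by 0.28 (SE 0.09, limma adjusted p = 0.0347). That call was lost in 8 of the alternatives, with adjusted p-values of 0.0537 to 0.158. Il1r1 overlapped, at 4.76, 5.27 and 4.84 TPM against 5.14, 5.30 and 4.91 TPM, and its difference of 0.04 had a 95% interval from -0.15 to 0.23 (limma adjusted p = 0.717). Il1b (0.42, 0.87 and 0.47 TPM against 0.39, 0.54 and 0.21 TPM), Il1rl1 (0.69, 0.88 and 1.10 TPM against 0.92, 0.82 and 0.70 TPM) and Il1r2 (at most 0.15 TPM in any library) were too low to be tested. Of the 4 members tested in culture, 3 were called lower in MOC1E1, where 53.4% of the 13975 genes were called, 33.2% lower and 20.2% higher. A call is therefore common between these lines, and the members' median of -1.67 stood beside -0.06 for all genes.

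The difference between the lines was then compared between tumour and culture in a single model of all 12 libraries, as the tumour difference minus the culture difference. The tumour and culture tables may have been normalised apart, so only differences within a table entered. The Il1rn gap was smaller in tumours than in culture by 1.64 on the log2 scale (SE 0.27, limma adjusted p = 0.00184), beside mean ratios of 2.64 and 15. For Il1a the same contrast gave 0.97 (SE 0.15, limma adjusted p = 0.00138), but the TPM ratios were almost equal, 15.7 and 16.1, and with a pseudocount of 0.1 in place of 1 the value was 0.20 (adjusted p = 0.552). Il1b, Il1r2 and Il1rl1 had larger gaps in tumours, by -1.55 (SE 0.38, limma adjusted p = 0.0164), -1.11 (SE 0.21, adjusted p = 0.00445) and -0.90 (SE 0.23, adjusted p = 0.0196). These 3 genes were near or under 1 TPM in all cultures, and with the smaller pseudocount Il1b (-1.36, adjusted p = 0.119) and Il1r2 (-0.91, adjusted p = 0.225) were no longer called. The contrast was -0.48 for Il1r1 (SE 0.15, limma adjusted p = 0.0465), a call lost in 12 of 15 alternatives, and 0.31 for Il1rap (SE 0.20, adjusted p = 0.337). Of the 7 members, 2 had positive and 4 negative calls, against 10.2% and 6.61% of 16813 genes, 16.8% together.

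The wider pathway was read from 4 lists, whose counts stand beside 11.9% of all genes called lower and 6.7% called higher in tumours. Of 8 tested relatives of the family, 3 were called lower in MOC1E1 tumours and 0 higher: the IL-36 gamma gene Il1f9 (-2.36), its receptor Il1rl2 (-2.26) and the IL1RL1 ligand Il33 (-1.64). Il33 was at 37.91, 59.91 and 49.34 TPM in MOC1 tumours and 22.54, 21.46 and 6.46 TPM in MOC1E1 tumours, and the gap in culture was wider, 38.64, 39.10 and 33.51 TPM against 1.17, 0.77 and 1.07 TPM. Of 16 signalling genes, 3 were called, a share near that of all genes called in either direction (18.6%), namely the adaptor Myd88 (-0.60) and the kinases Irak2 (-0.75) and Irak1 (-0.82). Of 18 NF-kB and IL-1 response genes, 6 fell and 0 rose, among them the neutrophil chemokine genes Cxcl3 (-4.02), Cxcl5 (-2.60) and Cxcl2 (-1.49). The others were the iron-binding protein gene Lcn2 (-1.71), the granulocyte growth factor gene Csf3 (-1.37) and the metalloproteinase gene Mmp3 (-1.20). Cxcl3 itself was at 22.26, 27.11 and 17.81 TPM in MOC1 tumours and 0.45, 0.45 and 0.37 TPM in MOC1E1 tumours. The list medians were -0.58, -0.16 and -0.66 in that order. Il1f9, Cxcl3, Csf3 and Cxcl2 passed the filter on low values only with their MOC1 libraries. Their place among the tested genes thus already depended on their higher level in MOC1, although the filter treats both lines alike.

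The processing machinery went partly the other way. Of 8 tested inflammasome genes, the adaptor Pycard fell (-1.62), while the caspases Casp1 (0.90) and Casp4 (1.00) rose in MOC1E1 tumours. Casp1, which cleaves the IL-1 beta precursor, was at 65.55, 67.19 and 56.00 TPM in MOC1 tumours and 105.10, 117.77 and 132.15 TPM in MOC1E1 tumours. In culture the order was the reverse, 56.92, 58.85 and 60.33 TPM against 30.50, 30.75 and 28.06 TPM, and the difference between tumour and culture was 1.86 for Casp1 and 3.11 for Casp4 on the log2 scale. Both pairs of Casp1 groups were without overlap.

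In culture, 5 of 6 relatives, 5 of 6 inflammasome genes, 12 of 15 signalling genes and 15 of 16 response genes were called lower in MOC1E1, each list with 1 called higher except the response genes, with 0. Over all genes 33.2% were called lower and 20.2% higher in culture. Of the genes called lower, Il33, Aim2, Cxcl3, Ccl2, Ccl20 and Csf2 passed the filter on low values only with their MOC1 libraries. The largest were Lcn2 (-4.89), Il33 (-4.25), Csf3 (-3.44), Cxcl3 (-3.42), Cxcl5 (-2.48), Casp4 (-2.11) and the DNA sensor Aim2 (-1.94). Those called higher were the IL-18 receptor gene Il18r1 (1.01), Txnip (0.59) and Ikbkb (0.20). The list medians were -0.67, -1.30, -0.31 and -1.54, beside -0.06 for all genes.

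The single-cell libraries placed the members in cell classes. They held 14766019 to 28466596 UMIs (unique molecule counts), and 2694 to 4724 cells a library were kept, 28192 in all. Any 2 libraries shared at most 35 cell barcodes. Cells were clustered per model with the IL-1 genes left out, and clusters were named from marker genes. Levels are given as CPM, the UMIs of a gene scaled to all UMIs of the class in a library, and since each group was 1 library there is no test: the 95% intervals cover counting error only, and a ratio of 2 to isotype in either direction is used as a rule of size. Neutrophil-like, monocyte-like and macrophage-like classes were all present in MOC1E1. MOC1 gave 39 neutrophil-like cells under isotype, 29 with PD-1 blocked and 1 with CTLA-4 blocked. MOC22 gave no myeloid class that met the naming rule. Most clusters of MOC1 and MOC22 were led by T cell genes, so the mix of cells in the libraries differed between models. Class sizes are thus no measure of neutrophil numbers in the tumours. In bulk, neutrophil markers were higher in MOC1 tumours (179.38 to 237.37 TPM) than in MOC1E1 tumours (14.73 to 34.00 TPM).

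Il1b was highest in neutrophil-like cells. Under isotype in MOC1E1 it stood at 6332 CPM (95% interval 6186 to 6481) in 693 neutrophil-like cells, 958 CPM (915 to 1003) in 289 macrophage-like cells and 233 CPM (219 to 248) in 649 monocyte-like cells. The intervals of these classes were separate, and the lymphoid levels were far lower, 13.5 CPM in NK-like, 4.1 CPM in regulatory T (Treg)-like and 0.9 CPM in CD4 T-like cells. An Il1b UMI was found in 1.30% of NK-like cells and 87.3% of neutrophil-like cells, although the latter were the shallower cells, with a median of 1367 UMIs. The part of other cells' RNA in the lymphoid levels was not tested. Il1rn had the same order, at 2056 CPM (1974 to 2142), 610 CPM (576 to 646) and 135 CPM (124 to 146), but came next in Treg-like cells at 104 CPM (81.6 to 130), whose interval overlapped that of monocyte-like cells. Il1a was at 184 CPM in neutrophil-like, 23.7 CPM in macrophage-like and 1.1 CPM in monocyte-like cells.

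The decoy Il1r2 was shared between myeloid and T cells. In the same library it was at 1355 CPM (1288 to 1425) in neutrophil-like cells, 196 CPM (166 to 231) in Treg-like cells, 196 CPM (177 to 216) in macrophage-like cells, 133 CPM (113 to 156) in CD8 T-like cells, 73.6 CPM (58.7 to 91.1) in CD4 T-like cells and 13.4 CPM (10.3 to 17.3) in monocyte-like cells. Treg-like and macrophage-like cells did not differ beyond their intervals, and NK-like cells were at 1.1 CPM or less in each library. Il1rap was at 111 CPM in neutrophil-like cells and at no more than 13 CPM in the other classes under isotype. Il1rl1 was at 46.4 CPM (32.1 to 64.8) in Treg-like and 33.3 CPM (23.6 to 45.7) in CD4 T-like cells, and at 0.9 CPM or less in the 3 myeloid classes. Il1r1, the receptor that signals, did not pass 5.9 CPM in any of the named MOC1E1 classes. Its highest cluster level was 86.3 CPM (72.2 to 103) in MOC1 cluster 13, 321 cells led by Pxdc1, Lmo4 and Zbtb16 with the gamma-delta gene Tcrg-C1 among the first 10, and it reached 80.6 CPM in MOC1 cluster 22 of 40 cells.

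Under anti-CTLA-4 the ligands and the antagonist stood higher in MOC1E1 myeloid cells. In neutrophil-like cells (693 cells after isotype control, 547 after anti-PD-1 and 254 after anti-CTLA-4, the order used from here on) Il1rn was at 2056, 2679 and 6277 CPM. The anti-CTLA-4 level was 3.05 times isotype (95% interval 2.87 to 3.25), against 1.30 times (1.23 to 1.38) for anti-PD-1. Il1a was at 184, 140 and 524 CPM, a ratio of 2.84 (2.28 to 3.53) for anti-CTLA-4. Il1b was at 6332, 5458 and 10183 CPM, with ratios of 0.862 for anti-PD-1 and 1.61 (1.54 to 1.68) for anti-CTLA-4, the latter short of the 2-fold rule. Il1rap was at 111, 76.3 and 228 CPM (ratio 2.06 for anti-CTLA-4, 1.49 to 2.81; log2 ratio 0.85, short of 2-fold, with a stricter cell filter), whereas Il1r2 was at 1355, 1378 and 1045 CPM (ratio 0.771). So 3 of the 5 members that could be compared were past 2-fold higher under anti-CTLA-4 and 0 lower, where 6.06% of all genes were past it upwards, 29.5% downwards and 35.5% in either direction. Under anti-PD-1 it was 0 of 5 members and 8.08% of genes.

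The make-up of the neutrophil-like class differed between the libraries. Cluster 5 (led by Cxcl2, Hcar2 and the itaconate enzyme gene Irg1) held 192, 288 and 207 cells, cluster 10 (led by Siglecf) 273, 130 and 12, and cluster 11 (led by Retnlg, S100a8 and S100a9) 228, 129 and 35. Il1rn had its highest level in cluster 5, at 4295, 4386 and 7059 CPM, and there the anti-CTLA-4 ratio was 1.64. In cluster 11 it stayed at 528, 512 and 535 CPM, a ratio of 1.01. Il1b ran against this order, highest in cluster 11 at 10230, 10229 and 12239 CPM and at 6115, 4668 and 9945 CPM in cluster 5 (anti-CTLA-4 ratios 1.20 and 1.63). Il1a was at 179, 193 and 624 CPM in cluster 5, a ratio of 3.48, and at 10.9 CPM or less in cluster 11. The isotype level of Il1a in the whole class, given above, was higher than in cluster 5 or cluster 11. Under isotype Il1a was therefore highest in cluster 10, which held 273 cells there and 12 under anti-CTLA-4. Those 12 cells lay under the 30 set for a ratio. The Il1rn ratio of the whole class was thus larger than in cluster 5 or cluster 11, while that of Il1a was as large within cluster 5.

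**Figure D2:**
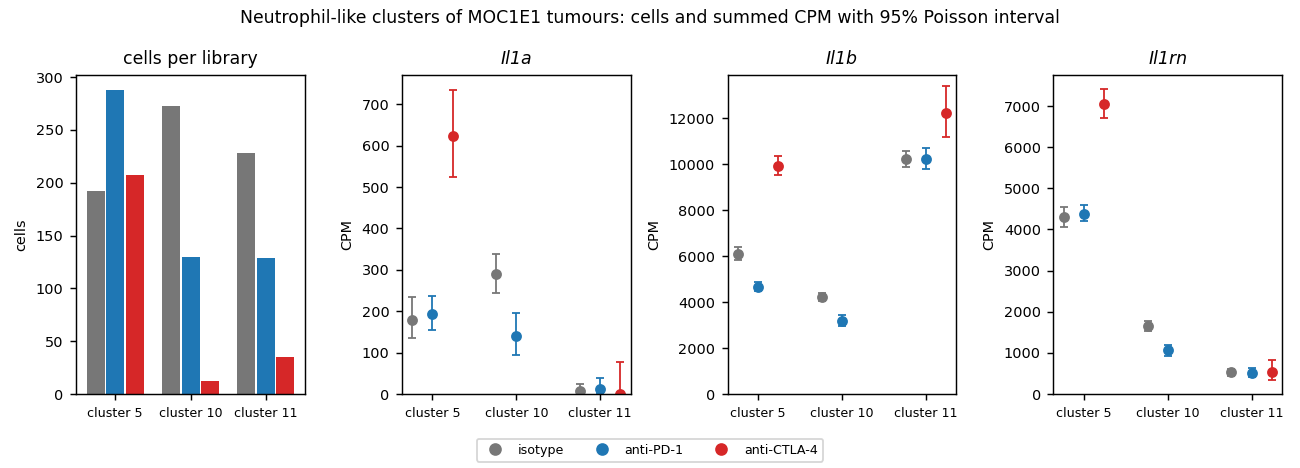
Cells per library (bars) and Il1a, Il1b and Il1rn levels (points, CPM on linear axes, with 95% Poisson intervals) in the 3 neutrophil-like clusters of MOC1E1 by treatment, 1 library each; no level is drawn for the 12 anti-CTLA-4 cells of cluster 10. Il1rn is near 528 CPM in cluster 11 under all treatments and stands at 7059 CPM in cluster 5 under anti-CTLA-4.

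Depth and other cells' RNA also differed between these neutrophil-like groups. The median was 1367, 1420 and 972 UMIs a cell, and summed T cell markers were at 34.6, 132 and 380 CPM while neutrophil markers were at 61769, 53179 and 45826 CPM; their part in the member ratios was not tested. Cells were also thinned to 500 UMIs, and those with fewer UMIs were dropped, so thinned and unthinned shares rest on different sets of cells. The share of cells with an Il1rn UMI was 42.3%, 48.3% and 74.4% after thinning (63.8%, 70.2% and 83.5% before). For Il1b the thinned shares were 74.6%, 61.4% and 81.5%, and for Il1r2 35.5%, 36.6% and 27.6%. Il1b and Il1rn UMIs were found together in 55.3% of 693 cells under isotype, 52.5% of 547 under anti-PD-1 and 71.3% of 254 under anti-CTLA-4, unthinned.

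Macrophage-like cells (289, 590 and 214 cells) had the same direction for the ligands and a lower decoy. Il1b was at 958, 1132 and 2147 CPM and Il1rn at 610, 696 and 1432 CPM, anti-CTLA-4 ratios of 2.24 (2.09 to 2.40) and 2.35 (2.16 to 2.55). Il1a was at 23.7, 26.4 and 122 CPM, a ratio of 5.14 (3.55 to 7.53). Il1r2 was at 196, 300 and 68.0 CPM, with ratios of 1.53 for anti-PD-1 and 0.347 (0.252 to 0.470) for anti-CTLA-4. On the log2 scale Il1b under anti-CTLA-4 was 0.99 with doublets kept, and Il1r2 was -0.98 with cells chosen by single transcripts and -0.79 with cells thinned to 500 UMIs, short of 2-fold. Il1a, Il1b and Il1rn were therefore past 2-fold higher and Il1r2 past 2-fold lower under anti-CTLA-4, 4 of 5 members compared, where 6.54% of all genes were past it upwards, 9.41% downwards and 15.9% in all, and 0 of 5 under anti-PD-1, where 2.75% were. Within cluster 4 (193, 422 and 146 cells), which held most of the class in each library, the anti-CTLA-4 ratios were 5.37 for Il1a, 2.31 for Il1b, 2.34 for Il1rn and 0.358 for Il1r2. In cluster 16 (96, 168 and 68 cells) Il1rn had a ratio of 2.49 and Il1b of 0.982. In macrophage-like cells the macrophage markers themselves were at 11645, 14627 and 4335 CPM in sum and C1qa at 2574, 3249 and 907 CPM, lowest under anti-CTLA-4, with medians of 6118, 5489 and 2154 UMIs a cell, and their part was not tested. By single transcripts the macrophage-like cells numbered 225, 423 and 62 and the monocyte-like cells 586, 687 and 269. The mix of cells in the anti-CTLA-4 class may thus differ from that under isotype.

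Monocyte-like cells (649, 835 and 158 cells) differed mainly in the antagonist. Il1rn was at 135, 128 and 446 CPM, ratios of 0.953 for anti-PD-1 and 3.31 (2.90 to 3.77) for anti-CTLA-4. Il1b was at 233, 318 and 400 CPM, ratios of 1.36 and 1.72. Of the 4 members compared, Il1rn alone was past 2-fold under anti-CTLA-4 (5.32% of all genes) and 0 under anti-PD-1 (0.46%). Other members reached the 2-fold line in some alternatives. Under anti-CTLA-4 the log2 ratio of Il1b (0.78) was 1.02 at 2000 UMIs and 1.0 with a stricter cell filter. That of Il1r2 (0.06) was -1.83 with single transcripts. Under anti-PD-1 the log2 ratio of Il1r2 (0.54) was -1.21 at 500 UMIs. Most of the Il1rn UMIs under isotype and anti-CTLA-4 lay in cluster 12 (171, 163 and 49 cells, led by Cxcl10, Dmkn and Vcan). There Il1rn went from 386 CPM under isotype to 1436 CPM under anti-CTLA-4, a ratio of 3.72. In cluster 3 (377, 456 and 82 cells, led by F13a1) it was at 18.1 and 25.4 CPM.

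**Figure D3:**
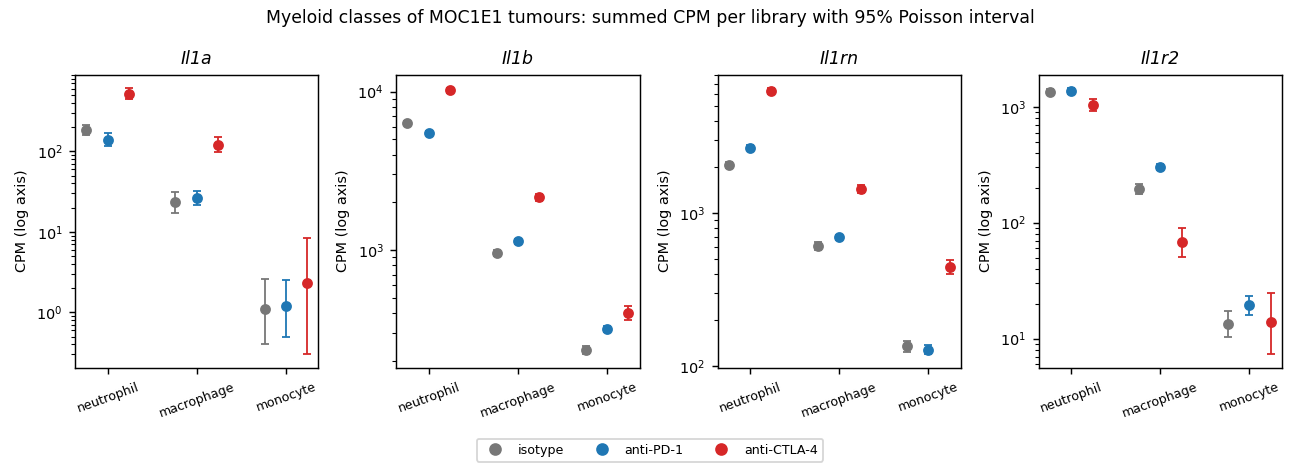
Il1a, Il1b, Il1rn and Il1r2 in the neutrophil-like, macrophage-like and monocyte-like cells of MOC1E1, in CPM on a log axis, by treatment; each point is 1 library with its 95% Poisson interval. Il1rn under anti-CTLA-4 stands above isotype in all 3 classes, at 6277, 1432 and 446 CPM.

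Response genes of the pathway were also higher in these cells under anti-CTLA-4. In neutrophil-like cells 8 of 13 NF-kB and IL-1 response genes were past 2-fold higher and 1, the acute-phase gene Saa3 (51.4 to 3.6 CPM, 1 UMI), lower, with a median log2 ratio of 1.30 beside -0.51 over all genes. The chemokine genes Cxcl2 (1667, 4604 and 10349 CPM) and Cxcl3 (50.5, 162 and 911 CPM) were past 2-fold higher under both antibodies, and the inflammasome gene Nlrp1a (16.8, 4.6 and 3.6 CPM) past 2-fold lower under both. Nlrp1a rests on few UMIs: its 3.6 CPM under anti-CTLA-4 is 1 UMI, as for Saa3. Cxcl2 leads cluster 5, whose share differed between the libraries. In macrophage-like cells 5 of 10 response genes were past 2-fold higher and 1 lower (median 1.00 beside -0.06), and in monocyte-like cells 3 of 9 were higher and 0 lower (median 0.61 beside -0.04). Read against all genes, 6.06% were past 2-fold higher and 29.5% lower in neutrophil-like cells, 6.54% and 9.41% in macrophage-like cells, and 5.32% in either direction in monocyte-like cells. Of 14 signalling genes, 4 were past 2-fold higher and 1 lower in macrophage-like cells, 1 and 1 in neutrophil-like cells, and 0 in monocyte-like cells. The inflammasome list had 1 higher and 2 lower of 10 in neutrophil-like cells, 1 and 1 of 11 in macrophage-like cells, and 0 of 10 in monocyte-like cells.

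The few neutrophil-like cells of MOC1 also held the ligands, the antagonist and the decoy. In the 39 isotype and 29 anti-PD-1 cells Il1b was at 11749 and 7360 CPM, Il1rn at 3901 and 7455 CPM, Il1r2 at 4570 and 2665 CPM and Il1a at 1751 and 1475 CPM. Il1b, Il1rn and Il1a were among the 10 leading genes of this cluster, beside S100a8 and S100a9. The anti-PD-1 library lay under the 30 cells set for a ratio.

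In Treg-like cells the decoy, the IL-33 receptor and the antagonist were all present, and the ligands were at or near 0. In MOC1 (1707, 751 and 105 cells in the same order) Il1r2 was at 266, 290 and 216 CPM and was found in 43.5%, 41.5% and 41.9% of cells. Il1rl1 was at 80, 49.3 and 54.2 CPM, ratios of 0.616 (0.533 to 0.709) and 0.677 (0.504 to 0.893). This direction turned when cells were thinned to 500 UMIs, with log2 ratios of 0.16 and 0.20. Il1rn was at 63.5, 82.5 and 5.1 CPM, from 778, 412 and 5 UMIs, and its anti-CTLA-4 ratio was 0.0806 (0.0261 to 0.189). All 5 of the latter UMIs lay in 1 of 105 cells. Il1b was at 0.4 CPM or less in the 3 libraries.

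Il1rn in MOC1 Treg-like cells was carried mainly by 1 cluster. Cluster 0 (led by Rln3, Il10 and Foxp3) had Il1rn at 124, 190 and 47.8 CPM and held 911, 369 and 16 cells, so that it was most of the class under isotype and a small share under anti-CTLA-4. Cluster 4 (562, 313 and 67 cells) had 19.1 and 27.9 CPM under isotype and anti-PD-1. Il1r2 was highest in cluster 0 too, at 433 and 521 CPM under isotype and anti-PD-1. Of the 3 members compared, 1 was past 2-fold under anti-CTLA-4, where 6.38% of genes were, and 0 under anti-PD-1, where 0.665% were. In the isotype library Il1r2 and Il1rn UMIs were found together in 184 of 1707 cells (10.8%) and Il1r2 and Il1rl1 in 240 (14.1%).

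The MOC1 libraries carried 4 hashtag oligos, and the labels do not say what the tags stand for. Among Treg-like cells Il1rl1 was at 65.1 to 95.3 CPM over the 4 isotype tags and at 40.3 to 54.7 CPM over the 4 anti-PD-1 tags, without overlap, and at 28.1 to 67.5 CPM over the anti-CTLA-4 tags. Il1rn overlapped between isotype (47.6 to 70.8 CPM) and anti-PD-1 (37.5 to 120 CPM) tags. Over the anti-CTLA-4 tags, with 17 to 31 cells each, Il1rn was at 0.0 to 18.7 CPM. The tags of a treatment share a library, so they are no replicates of the treatment.

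In MOC1E1 Treg-like cells (178, 257 and 40 cells) Il1rn was at 104, 47.3 and 9.1 CPM, from 76, 56 and 2 UMIs. The Il1rn ratios were 0.456 (0.317 to 0.653; log2 ratios of -0.77 to -0.53, short of 2-fold, with doublets kept, single transcripts or thinning) for anti-PD-1 and 0.0881 (0.0105 to 0.329) for anti-CTLA-4. Il1r2 was at 196, 185 and 352 CPM, a ratio of 1.79 (1.34 to 2.38) for anti-CTLA-4, and Il1rl1 at 46.4, 24.5 and 137 CPM, ratios of 0.528 (past 2-fold lower in 5 of 6 alternatives, with log2 ratios of -1.41 to -1.05) and 2.95 (1.75 to 4.97; log2 ratio 0.72, short of 2-fold, with cells chosen by single transcripts). Past 2-fold were 1 of 3 members under anti-PD-1 (4.74% of all genes) and 2 of 3 under anti-CTLA-4 (12.7%). The 40 anti-CTLA-4 cells had more CD8 RNA, with Cd8a at 72.3, 109 and 584 CPM, and its part was not tested. In MOC22 Treg-like cells (133 isotype and 88 anti-PD-1 cells) Il1r2 was at 144 and 197 CPM, Il1rl1 at 19.5 and 54.6 CPM (ratio 2.80, 1.43 to 5.69) and Il1rn at 44.2 and 21.0 CPM (ratio 0.475, 0.209 to 0.983). Thinned to 500 UMIs, the Il1rn log2 ratio was 0.27 and that of Il1rl1 0.60, so neither was past 2-fold, and Il1rl1 was also short of it with single transcripts (0.77) and finer clusters (0.87). There 2 of 3 members were past 2-fold, beside 8.07% of genes.

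**Figure D4:**
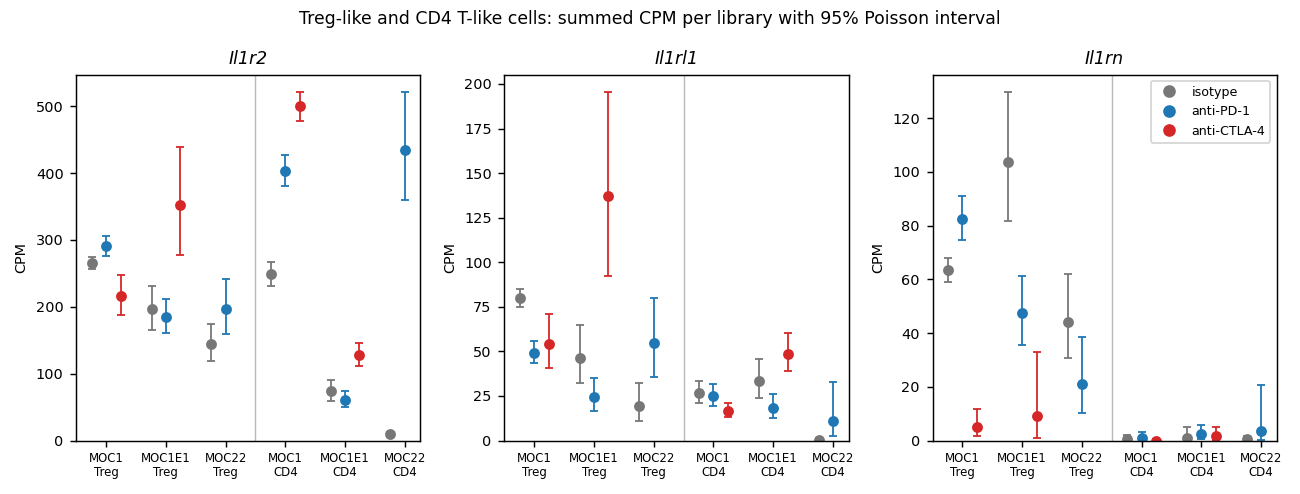
Il1r2, Il1rl1 and Il1rn in Treg-like and CD4 T-like cells of the 3 models, in CPM on linear axes that differ between genes, by treatment (MOC22 had no anti-CTLA-4 library); each point is 1 library with its 95% Poisson interval. Il1rn in Treg-like cells is lowest under anti-CTLA-4 in MOC1 and MOC1E1, at 5.1 and 9.1 CPM.

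In CD4 T-like cells outside the Treg-like class, Il1r2 was higher under anti-CTLA-4 at the level of the class. In MOC1 (622, 606 and 836 cells) Il1r2 was at 249, 403 and 500 CPM, ratios of 1.62 (1.48 to 1.79; log2 ratio 1.11, past 2-fold, with doublets kept) and 2.01 (1.85 to 2.19). Il1rl1 was at 26.7, 25.0 and 16.7 CPM and Il1rn at 1.0 CPM or less. Past 2-fold was 1 of 2 members under anti-CTLA-4 (5.88% of genes) and 0 of 2 under anti-PD-1 (2.29%). The cluster that carried Il1r2 was the one that differed in share: cluster 2 (168, 254 and 757 cells, led by Tnfsf11 and Tnfsf8, with Il1r2 among its 10 leading genes) had 725, 750 and 536 CPM, and cluster 5 (454, 352 and 79 cells, with S1pr1 and Tcf7) 5.3, 16.2 and 68.6 CPM. Within cluster 2 the anti-CTLA-4 ratio was 0.739 (0.678 to 0.806), the opposite direction to that of the class. With cells chosen by their Cd4 and CD3 transcripts instead of by cluster, the MOC1 log2 ratio of Il1r2 under anti-CTLA-4 was 0.54, short of 2-fold. In MOC1E1 (243, 415 and 439 cells) Il1r2 was at 73.6, 60.8 and 128 CPM, ratios of 0.827 and 1.74, and again lay in 1 cluster, cluster 7 (40, 81 and 377 cells), at 360, 284 and 143 CPM. With cells chosen by transcripts the anti-CTLA-4 log2 ratio of Il1r2 was 0.00 in MOC1E1. Il1rl1 there was at 33.3, 18.5 and 48.7 CPM for the class. Past 2-fold were 0 of 2 members under either antibody, beside 3.52% and 11.1% of genes. Alternatives moved these values across the line: under anti-CTLA-4 the log2 ratio of Il1r2 was 1.47 at 2000 UMIs and 1.37 at 500 UMIs, and that of Il1rl1 was 1.62 with single transcripts and 1.30 with finer clusters, while under anti-PD-1 Il1rl1 was -1.18 at 2000 UMIs.

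In MOC22, Il1r2 was higher under anti-PD-1 in the CD4 T-like class and also within 1 of its clusters. Il1r2 in the class was at 9.6 CPM in 764 isotype cells and 435 CPM in 46 anti-PD-1 cells, a ratio of 45.5 (31.3 to 67.5), where 24.5% of genes were past 2-fold. With cells chosen by their transcripts (520 and 125 cells) the Il1r2 ratio was 12.8 (8.96 to 18.6). Cluster 1, with 693 and 14 of these cells, held no Il1r2 UMI, which allows levels up to 0.9 and 52.5 CPM for Il1r2, and cluster 13 (71 and 32 cells, led by Sostdc1 and Tnfsf8, with Il21 and Cxcr5) was at 82.2 and 553 CPM, a ratio of 6.72 (4.63 to 9.96). A MOC22 cluster with both Foxp3 and Cd8a, kept apart from the classes (120 and 105 cells), had Il1r2 at 221 and 88.4 CPM, a ratio of 0.400, beside 6.32% of genes past 2-fold. Its log2 ratio was -0.42 with single transcripts and -0.61 at 500 UMIs, short of 2-fold.

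The highest T cell levels of both receptors were in a small MOC1 cluster led by Il13, Il5 and Il4 (48, 62 and 52 cells), cytokines of type 2 helper cells. It was kept apart from the CD4 T-like class by a naming rule, at least 2 of Il13, Il5 and Il4 among the first 10 genes. Hdc, a listed neutrophil marker, was also among these 10. Il1r2 was at 1535, 1384 and 380 CPM, an anti-CTLA-4 ratio of 0.248 (0.205 to 0.298), and Il1rl1 at 348, 174 and 175 CPM, ratios of 0.502 (0.378 to 0.662) and 0.504 (0.369 to 0.683). Only Il1r2 under anti-CTLA-4 was past 2-fold of the 2 members, beside 11.7% of genes, and 7.4% of genes under anti-PD-1. Over the 4 hashtags, with 7 to 26 cells each, Il1r2 was at 742.8 to 2853.1 CPM under isotype, highest in 1 tag of 15 cells, at 369.4 to 2059.1 CPM under anti-PD-1 and at 78.4 to 804.3 CPM under anti-CTLA-4, so the tags of isotype and anti-CTLA-4 overlapped. In CD8 T-like cells, set beside these for reference, Il1r2 was at 171, 85.0 and 49.7 CPM in MOC1, at 133, 45.8 and 27.1 CPM in MOC1E1, and at 11.6 and 55.8 CPM in MOC22.

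Across the 22 clusters of the MOC1E1 libraries, the genes most like each member were found by Pearson's r of log2(CPM + 10) over 6024 genes. The clusters share libraries, so r is a description. Il1b was most like Tnfaip2 (r = 0.982), Bst1 (0.974) and Cd300lf (0.973), and Il1rn most like Rab20 (0.961), Clec5a (0.954) and Alas1 (0.948). Il1b and Il1rn had an r of 0.930 with each other. Il1r2 was most like Mxi1 (0.886), Bnip3 (0.866) and the glucose transporter gene Slc2a1 (0.862). Il1rl1 was most like Hrh4 (0.814), Dctn6 (0.805) and Asb2 (0.804), and had an r of -0.444 with Il1b.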

How the data were processed

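The 7 genes and all gene lists were chosen with earlier results of these data known. Bulk RNA was measured in 12 libraries and single-cell RNA (10x 5′ kit) in 8. The authors deposited TPM values per gene for the bulk libraries and raw UMI count matrices for the single cells; the submitters' processing notes name Trimmomatic 0.36, kallisto 0.46.0, DESeq2 and Cell Ranger 3.0.2, and the builds mm10 and GRCh38, without a role. TPM keeps no depth, so the bulk depth is unknown. Bulk columns were matched to groups by name, 0 value columns were left unused, and 55394 of 55573 gene IDs matched a symbol. Genes with at least 1 TPM in 3 libraries were tested as log2(TPM + 1) with limma 3.58.1 (R 4.3.3, trend on the mean, Benjamini-Hochberg, threshold 0.05), tumours and cultures separately, and the difference between them over all 12. Nothing says that bulk libraries came from separate mice or passages, so the spread behind the p-values may be technical. The tests were checked on simulated data.

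Kept cells had 300 or more genes and no more than 10% of UMIs from mitochondrial genes. The doublet caller's own threshold marked at most 5 cells a library, so the cells of highest doublet score, 0.8% per 1000 cells, were removed. Scanpy 1.11.5 clustered each model (2000 variable genes without IL-1 family genes, 30 components, 15 neighbours, Leiden resolution 1). The rules for naming clusters were completed after the clusters were seen. UMIs were summed per class and library; genes with 20 UMIs in both libraries together and 10 CPM in either were compared where both had 30 cells. Intervals are exact Poisson for levels and binomial-based for ratios, at 95%. All 7 genes were named in every comparison; of the lists, genes called in bulk (at most 8) and at most 4 per cell class. Promoter windows came from RefSeq (GRCm38.p6), and all 7 genes matched by symbol. The T cell receptor tables and 2 exome samples were not analysed here. Alternatives were another pseudocount, no filter, size factors, a fit over all libraries and each library left out. Others were stricter cell filters, doublets kept, finer clusters, other sums and thinning to 2000 UMIs. Thinning to 500 UMIs was added after seeing the data. Cells with fewer UMIs than the target were dropped, not thinned. At 2000 UMIs this took out most MOC1E1 neutrophil-like cells, whose medians were 1367, 1420 and 972 UMIs by treatment.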

Additional observations from a re-analysis of the deposited data

Results flagged for a closer look

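The limma contrast of the tumour and culture differences, given with its errors and adjusted p-values above, was called for 6 of the 7 genes. Over all 16813 genes tested, 16.8% were called. The contrast was 0.97 for Il1a and 1.64 for Il1rn, and -1.55 for Il1b, -0.48 for Il1r1, -1.11 for Il1r2 and -0.90 for Il1rl1, on the log2 scale. For Il1a the mean TPM ratios were almost equal, 15.7 in tumours and 16.1 in culture. Of these calls, only that of Il1rn was kept in every alternative. With a pseudocount of 0.1 the calls of Il1a, Il1b, Il1r1 and Il1r2 were lost.

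The single-cell models moved in opposite directions for 3 genes in Treg-like cells; with 1 library a group, the difference between models was not tested. Under anti-CTLA-4 the ratio of Il1r2 to isotype was 1.79 in MOC1E1 and 0.812 in MOC1, and that of Il1rl1 was 2.95 in MOC1E1 and 0.677 in MOC1. With cells thinned to 500 UMIs the MOC1 log2 ratios of Il1rl1 turned positive, 0.16 under anti-PD-1 and 0.20 under anti-CTLA-4, and the opposite directions of Il1rl1 under anti-CTLA-4 were gone. Under anti-PD-1 the Il1rl1 ratio was 2.80 in MOC22, 0.616 in MOC1 and 0.528 in MOC1E1. The Il1rn ratio under anti-PD-1 was 1.30 in MOC1, 0.456 in MOC1E1 and 0.475 in MOC22, the last with a log2 ratio of 0.27 at 500 UMIs.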

How the results depend on the processing

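Bulk calls of Il1a, Il1b, Il1rn and Il1r2 in tumours and of Il1a and Il1rn in cultures kept their direction and their side of the limma threshold of 0.05 in every alternative run; Il1a in tumours was not tested without a MOC1 library, since it then missed the filter. Il1rap in tumours, 0.03, ranged from -0.07 to 0.17 with 1 library left out, and was -0.07 without MOC1 library 5, -0.03 without MOC1E1 library 2 and -0.06 without MOC1E1 library 3. The Il1rl1 contrast between tumours and culture was lost without MOC1E1 culture library 10 (adjusted p = 0.0526) or MOC1 culture library 4 (adjusted p = 0.0528), by limma. The number of genes called in tumours, 2820, was 1273 to 2645 with 1 library left out and 5220 with all 12 libraries in the fit; the cause was not tested. It was 1530, 1273 and 1520 without MOC1 library 3, 4 or 5 and 1821 and 1639 without MOC1E1 library 1 or 2. Counts were 6168 to 6653 in cultures (7461) and 2011 to 3012 for the contrast (2828). No paired analysis was possible because the numbers in the bulk column names are not the replicate numbers of the labels, and each single-cell group is 1 library.

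Of 19 single-cell member results past 2-fold, 103 of 104 alternatives kept the direction and 86 stayed past 2-fold; alternatives with a count of 0 gave no value. The exception was Il1rn in MOC22 Treg-like cells, 0.27 on the log2 scale at 500 UMIs. Of 38 results short of 2-fold, 12 passed it in some alternative (20 of 223 values) and 13 changed direction in some (18 values). Shares of genes past 2-fold also moved. At 2000 UMIs they were 4.38% (MOC1 CD4 T-like, anti-PD-1), 2.75% and 16.7% (MOC1 Treg-like, anti-PD-1 and anti-CTLA-4), 2.69% and 10.8% (MOC1E1 monocyte-like, same order) and 6.83% (MOC1E1 macrophage-like, anti-PD-1). At 500 UMIs they were, in the same order of classes, 5.85% (and 9.97% for anti-CTLA-4), 6.00% and 22.0%, 5.14% and 14.6%, and 8.19%, with 7.77% for MOC1E1 CD4 T-like cells under anti-PD-1. With cells chosen by single transcripts they were 1.36% and 11.6% for MOC1 Treg-like, 12.2% for MOC1E1 monocyte-like under anti-CTLA-4 and 15.4% for MOC22 CD4 T-like cells; the cause was not tested. Few cells limit MOC1 neutrophil-like and anti-CTLA-4 Treg-like values.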
